A study of Homo sapiens with 18 samples.

Results

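The genes described here are 51 genes of homologous recombination and the Fanconi anaemia pathway, chosen by name as members of the pathway and found in the deposited table by Ensembl identifier. All 51 were among the 35044 genes listed, and all 51 passed the filter on low counts that left 18335 genes for testing. RNA-seq was carried out on 18 libraries, described by the study as the breast cancer line HCC1937, which carries mutated BRCA1. The line was studied with an empty vector (HCC1937-EV) and with wild-type BRCA1 overexpressed (HCC1937-OE-BRCA1), each at 0 h, 12 h and 24 h of the PARPi olaparib, with 3 libraries in each of the 6 groups. By the study's description, the comparison asks how PARPi treatment changed transcripts with and without restored BRCA1. Levels of BRCA1 and of cell markers that bear on this description are given below. The sample characteristics list olaparib for the samples taken at 0 h as well, and the empty-vector cells carry a genotype label of wild type. The 0 h libraries are called untreated here, since the study describes treatment for 12 h or 24 h. No source used here says whether either line was a single clone or whether the 3 libraries of a group came from separate cultures, so the tests measure the spread between these libraries, which may be technical.

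Homologous recombination copies an intact sister sequence to repair a broken chromosome, and it acts mainly in S and G2 phase. Nucleases first resect the broken ends, BRCA1, PALB2 and BRCA2 then load the strand-exchange recombinase, and helicases and nucleases finally resolve the joined strands. The Fanconi anaemia genes repair crosslinks between the DNA strands: a core complex attaches ubiquitin to FANCD2 and FANCI, which recruits nucleases. Cells that lack BRCA1 or BRCA2 are known to be sensitive to PARP inhibitors, and the theta-mediated joining of ends by POLQ is a known alternative to recombination.

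BRCA1 (ENSG00000012048.23, chr17:43044295-43170245, minus strand, GRCh38) was read first, as the overexpressed gene. Its level in CPM (read counts relative to the TMM-normalized size of the library) was 126, 111 and 117 in the untreated libraries labelled EV and 166, 122 and 127 in those labelled OE. These groups overlapped, and the difference did not pass the test at an adjusted p under 0.05 by edgeR's quasi-likelihood test, which is used for every adjusted p below (log2 fold change 0.24 ± 0.11 SE, adjusted p = 0.0654). The call depended on the processing: with an offset for GC content and length the difference was 0.42 ± 0.05 (adjusted p = 2.23e-07). In all, 5 of 8 alternative settings, the offset included, and 3 of 18 fits with a library left out called BRCA1 higher in OE-labelled libraries. A gene-level count does not separate a transgene from the cells' own, mutated transcript. The lines also differed far beyond BRCA1. Of 12 breast epithelial markers, all 12 had a mean above 1 CPM over the OE-labelled libraries and 5 did over the EV-labelled libraries. EPCAM, a surface protein of epithelial cells, lay between 252 and 352 CPM in OE-labelled libraries, against 0 to 0.0617 CPM in EV-labelled libraries, where it had 1 read in 9 libraries. The basal keratin KRT5 lay between 1062 and 1742 CPM against 0 to 0.124 CPM, while the luminal keratin KRT18 lay between 772 and 1407 CPM and between 738 and 1068 CPM. The mesenchymal filament gene VIM lay between 0.636 and 1.90 CPM in OE-labelled and between 227 and 335 CPM in EV-labelled libraries. The summed level of the 9 fibroblast and mesenchymal markers was 389 to 458 CPM in the EV-labelled and 9.89 to 16.0 CPM in the OE-labelled libraries. COL1A1 lay between 89.0 and 143.5 CPM in EV-labelled and between 5.85 and 11.4 CPM in OE-labelled libraries. For ZEB1 it was 16.35 to 25.6 against 1.04 to 2.39 CPM, and for PDGFRB 6.34 to 11.3 against 0.1885 CPM at most. COL1A2, COL3A1, PDGFRA, FAP and THY1 were at 1.23 CPM at most in any library. The 8 leukocyte and endothelial markers summed to 2.94 to 5.54 CPM in EV-labelled and 51.8 to 112.5 CPM in OE-labelled libraries, and the leukocyte gene PTPRC was at 2.22 CPM at most. The part of these marker differences in the results was not tested. The near absence of EPCAM and KRT5 in the EV-labelled libraries goes against what is known of HCC1937, a line of breast epithelial origin, and the libraries are called EV-labelled and OE-labelled throughout. Any difference between them cannot be told apart from the other differences between the lines, BRCA1 included.

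Total counts lay between 15081973 and 17571922 per library. The correlation of log2 CPM over all genes tested was 0.986 to 0.995 within groups, 0.981 to 0.994 between times of a line and 0.780 to 0.801 between the lines. A trend with GC content differed between times and also between libraries of a group, and whether it was technical was not tested. The rank correlation of each gene's distance from its average in that line with the GC content of its transcript was between -0.67 and -0.28 in the untreated EV-labelled libraries and between 0.33 and 0.71 at 24 h. In OE-labelled libraries it was -0.69, 0.36 and 0.67 untreated and between -0.54 and -0.40 at 24 h. At 12 h it was -0.69, -0.29 and 0.73 in EV-labelled and 0.67, 0.26 and 0.26 in OE-labelled libraries. The median GC content of the 51 genes was 42.2%, against 48.7% for all genes tested with an annotation, so the counts of called genes at 24 h are also given with an offset for GC content and length in each library, as are the values of some single genes. Such an offset would also remove a treatment change that follows GC content or length.

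Levels of the 51 genes in untreated libraries, given per kilobase of exon so that genes can be compared, spanned 149.6-fold in EV-labelled and 86.0-fold in OE-labelled libraries. UBE2T, the E2 enzyme that ubiquitinates FANCD2 and FANCI, was highest in both, at 41.3 ± 4.76 CPM per kb (SD, n = 3) in EV-labelled and 41.8 ± 4.32 in OE-labelled libraries. In EV-labelled libraries the resection nuclease EXO1 came next with 39.2 ± 1.64 CPM per kb, within the spread of UBE2T. In OE-labelled libraries RAD51AP1, a partner of the recombinase, came next with 23.1 ± 4.66, below the spread of UBE2T. The lowest genes were RAD51B, with 0.276 ± 0.112 and 0.654 ± 0.193 CPM per kb in EV-labelled and OE-labelled libraries, and ABRAXAS1, a scaffold of the BRCA1-A complex, with 0.658 ± 0.102 and 0.486 ± 0.0795. BRCA1 stood at 12.8 ± 0.838 and 15.1 ± 2.62 CPM per kb, above the medians of the 51 genes, 7.08 and 5.84.

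**Figure D1:**
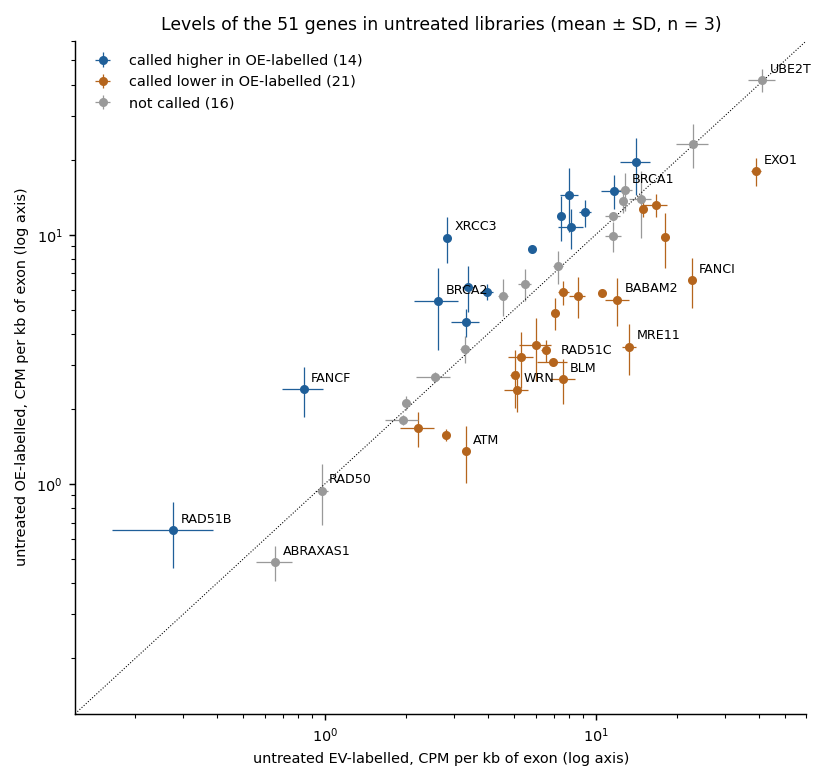
Mean level of each gene in untreated EV-labelled (x axis) and OE-labelled libraries (y axis), in CPM per kb of exon on log axes, with bars of 1 SD over 3 libraries and a dotted line of equality. 14 genes were called higher and 21 lower in OE-labelled libraries; MRE11, FANCI and BLM lie farthest below the line, and XRCC3 and FANCF farthest above it.

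Between the untreated lines, 35 of the 51 genes were called, 14 higher and 21 lower in OE-labelled libraries. Over all genes tested 72.7% were called, 39.4% higher and 33.3% lower, so the share among the 51 was no larger than the background. The median log2 fold change of the 51 was -0.05, against 0.11 for all genes. Both genes of the ID2 complex were lower, as were the BLM helicase and 3 other genes of the dissolvasome and helicase group, in which 2 genes were higher. In the BRCA1 core 1 of 4 genes was called, BRCA2, and it was higher. The recombinase paralogues split, with 2 higher and 3 lower of 5. End resection had 1 higher and 3 lower of 6, the Fanconi core complex with UBE2T 3 and 3 of 8. The checkpoint kinases, grouped with the ATR partner ATRIP, had 1 and 3 of 5. The BRCA1-A complex had 1 higher and 1 lower of 4, the nucleases 2 and 2 of 5, the accessory factors 1 higher of 4, and the genes of theta-mediated joining none of 2. The counts between the lines at 0 h, 12 h and 24 h moved by less than 1.5 times under each alternative tried.

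In 12 genes the untreated lines differed by at least 1 on the log2 scale. Differences of this size were common among all genes tested, whose lower and upper quartiles were -0.78 and 1.22, against -0.79 and 0.38 for the 51. The shares of all genes that differed by at least 1, or had no overlap between the lines, are not given here. MRE11 (ENSG00000020922.13, chr11:94415578-94493908, minus strand), the nuclease of the MRE11, RAD50 and NBN complex that starts resection, was the most reduced (log2 fold change -1.90 ± 0.14 SE, adjusted p = 5.67e-11). It stood at 109.7, 98.2 and 99.6 CPM untreated, 100.1, 99.4 and 75.6 CPM at 12 h and 96.2, 85.2 and 89.2 CPM at 24 h in EV-labelled libraries. The OE-labelled libraries held 33.9, 26.9 and 21.4 CPM untreated, 25.7, 24.6 and 25.6 CPM at 12 h and 30.4, 32.6 and 31.6 CPM at 24 h, below every EV-labelled library. Of its partners, RAD50 gave -0.05 ± 0.23 (adjusted p = 0.849), and NBN, the partner that binds ATM, was called higher at 0.47 ± 0.16 (adjusted p = 0.0109). FANCI (ENSG00000140525.19, chr15:89243949-89317261, plus strand), which forms the ID2 clamp with FANCD2, had a log2 fold change -1.78 ± 0.12 SE, adjusted p = 2.68e-11. Its levels were 175, 179 and 173 CPM untreated, 196, 176 and 162 CPM at 12 h and 149, 148 and 157 CPM at 24 h in EV-labelled and 63.97, 41.3 and 47.9 CPM untreated, 52.03, 53.5 and 54.98 CPM at 12 h and 74.95, 67.5 and 78.2 CPM at 24 h in OE-labelled libraries, with no overlap at any time. FANCD2 was lower by less (log2 fold change -0.86 ± 0.08 SE, adjusted p = 5.47e-09). BLM (ENSG00000197299.13, chr15:90717327-90816165, plus strand), the helicase mutated in Bloom syndrome, gave -1.52 ± 0.15 (adjusted p = 8.20e-09).

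BLM levels were 56.3, 45.8 and 49.3 CPM untreated, 60.3, 54.3 and 42.6 CPM at 12 h and 52.6, 49.8 and 57.6 CPM at 24 h in EV-labelled libraries and 21.6, 16.4 and 14.7 CPM untreated, 17.9, 21.1 and 16.5 CPM at 12 h and 23.04, 23.2 and 23.7 CPM at 24 h in OE-labelled libraries. WRN, the helicase of Werner syndrome, had a log2 fold change of -1.09 ± 0.15 (adjusted p = 1.50e-06). WRN stood at 32.1, 26.8 and 27.5 CPM untreated, 26.6, 29.8 and 20.03 CPM at 12 h and 22.1, 22.99 and 24.1 CPM at 24 h in EV-labelled libraries and at 16.3, 11.4 and 12.8 CPM untreated, 10.8, 11.6 and 12.6 CPM at 12 h and 14.3, 11.9 and 12.3 CPM at 24 h in OE-labelled libraries. ATM, the kinase that senses double-strand breaks, followed with -1.29 ± 0.17 (adjusted p = 6.06e-07), RAD51C, a paralogue found in both paralogue complexes, with -1.17 ± 0.12 (adjusted p = 2.39e-08), and EXO1 with -1.13 ± 0.10 (adjusted p = 3.83e-09). For RAD51C the libraries held 42.2, 36.96 and 47.7 CPM untreated, 50.5, 42.4 and 41.6 CPM at 12 h and 44.6, 39.2 and 36.2 CPM at 24 h when EV-labelled and 18.5, 19.2 and 18.7 CPM untreated, 19.6, 17.3 and 19.4 CPM at 12 h and 20.4, 23.3 and 23.2 CPM at 24 h when OE-labelled. EXO1 had 170.1, 159.6 and 157 CPM untreated, 197, 163 and 151 CPM at 12 h and 188, 175 and 186 CPM at 24 h in EV-labelled and 85.03, 70.9 and 66.9 CPM untreated, 78.7, 76.1 and 78.5 CPM at 12 h and 105, 97.8 and 109 CPM at 24 h in OE-labelled libraries. BABAM2, a subunit of the BRCA1-A complex, gave -1.13 ± 0.16 (adjusted p = 1.44e-06). It lay at 42.7, 36.03 and 43.8 CPM untreated, 47.8, 34.1 and 35.1 CPM at 12 h and 43.7, 40.2 and 35.1 CPM at 24 h in EV-labelled and at 21.1, 20.8 and 13.98 CPM untreated, 14.7, 16.6 and 16.2 CPM at 12 h and 18.3, 21.1 and 19.8 CPM at 24 h in OE-labelled libraries. RAD51C, EXO1, BABAM2, WRN and BLM thus had no overlap between the lines at 0 h, 12 h or 24 h.

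The 4 genes at least 1 log2 unit higher in untreated OE-labelled libraries were XRCC3, FANCF, RAD51B and BRCA2. XRCC3 (ENSG00000126215.14, chr14:103697609-103715504, minus strand), the partner of RAD51C, had the largest rise (log2 fold change 1.78 ± 0.15 SE, adjusted p = 9.59e-10). FANCF, an adaptor of the Fanconi core complex, gave 1.51 ± 0.22 (adjusted p = 3.18e-06) at low counts. Its EV-labelled libraries had 2.17, 2.29 and 2.96 CPM untreated, 2.69, 3.06 and 2.17 CPM at 12 h and 2.01, 2.18 and 1.68 CPM at 24 h, and its OE-labelled libraries 8.68, 5.48 and 7.05 CPM untreated, 8.30, 5.32 and 7.69 CPM at 12 h and 5.90, 7.12 and 5.82 CPM at 24 h. RAD51B, a paralogue, gave 1.24 ± 0.31 (adjusted p = 0.00119) and was lower still in counts. It stood at 1.62, 3.03 and 1.54 CPM untreated, 2.63, 1.81 and 1.22 CPM at 12 h and 2.60, 3.66 and 5.45 CPM at 24 h in EV-labelled and at 4.86, 6.35 and 3.46 CPM untreated, 4.90, 4.84 and 6.61 CPM at 12 h and 8.54, 8.47 and 8.34 CPM at 24 h in OE-labelled libraries. BRCA2 (ENSG00000139618.17, chr13:32315474-32400266, plus strand), the loader of the recombinase, rose by 1.04 ± 0.20 SE on the log2 scale (adjusted p = 1.16e-04). For all 4 genes every OE-labelled library was above every EV-labelled library of the same time.

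At 12 h of olaparib none of the 51 genes was called in either line by edgeR. In EV-labelled cells 0.0436% of all genes were called and in OE-labelled cells 2.31%. At an unadjusted p under 0.05 there were 6 of the 51 genes in EV-labelled and 0 in OE-labelled cells, against 16.2% and 11.7% of all genes. DESeq2's Wald test called FANCD2 and the nuclease subunit EME1 higher in EV-labelled cells at 12 h, where it called 2.39% of all genes with an adjusted p, and none of the 51 in OE-labelled cells. The median log2 fold change of the 51 genes was -0.05 in EV-labelled and 0.03 in OE-labelled cells. No gene of the 51 was called in the difference between the lines at 12 h, where 4 had an unadjusted p under 0.05 and 0.518% of all genes were called, and none was called by DESeq2.

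At 24 h in EV-labelled cells, 5 of the 51 genes rose and 3 fell. Over all genes tested 13.7% were called, 8.62% higher and 5.12% lower, and 8 of 51 is close to that background. The genes that rose belong to different complexes. BABAM1 (ENSG00000105393.16, chr19:17267350-17281249, plus strand), the subunit that holds the BRCA1-A complex together, rose most (log2 fold change 0.76 ± 0.20 SE, adjusted p = 0.0175), followed by XRCC3 (0.55 ± 0.15, adjusted p = 0.0225). EME1, the partner of the nuclease MUS81, rose by 0.49 ± 0.11 (adjusted p = 0.00903). Its untreated libraries held 24.3, 26.3 and 24.6 CPM and its 24 h libraries 34.5, 36.6 and 34.9 CPM, without overlap. FANCD2 (ENSG00000144554.13, chr3:10026414-10101930, plus strand) rose by 0.37 ± 0.08 (adjusted p = 0.00759). RAD54L, a motor protein that works with the recombinase, rose by 0.33 ± 0.10 (adjusted p = 0.0388). The genes that fell were RBBP8, which encodes the resection factor CtIP (-0.57 ± 0.18, adjusted p = 0.0421), RAD52, an annealing protein (-0.42 ± 0.12, adjusted p = 0.0229), and TOP3A, the topoisomerase of the dissolvasome (-0.36 ± 0.11, adjusted p = 0.0405). In all 8 genes, picked by the test on these same libraries, the 3 untreated and the 3 treated libraries did not overlap. The share of all genes without such overlap is not given here, so the separation adds nothing to the calls.

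In the BRCA1 core no gene passed the test in EV-labelled cells at 24 h, where BRCA1, BARD1, PALB2 and BRCA2 had log2 fold changes of -0.32, -0.37, -0.39 and -0.27. After the GC and length offset the values were -0.08, -0.13, -0.27 and 0.10, none of them called, so the sign of BRCA2 turned. BRCA1 missed the threshold with -0.32 ± 0.11 (adjusted p = 0.0640). The median of the 51 genes was -0.13 and 18 of 51 values were above 0, against a median of 0.00 and 46.3% of values above 0 for all genes. With the GC and length offset the median of the 51 was 0.03 and 28 values were above 0, so the sign of the median turned. With that offset 12 genes were called, 7 higher and 5 lower, against 14% of all genes (7.55% higher and 6.45% lower). They held 6 of the 8 above: BABAM1, EME1, FANCD2, RAD52, RBBP8 and TOP3A. BABAM1 was then at 0.50 ± 0.14 (adjusted p = 0.0181), XRCC3 at 0.25 ± 0.09 (adjusted p = 0.0728) and RAD54L at 0.16 ± 0.08 (adjusted p = 0.190). The highest value of the 51 was that of RAD51B at low counts, not called at 0.92 ± 0.31 (adjusted p = 0.0556) and called with the offset at 1.09 ± 0.30 (adjusted p = 0.0211). The count rested on single libraries. It was 1 (FANCD2) without the untreated EV-labelled replicate 1, 2 without the untreated replicate 3 or the 24 h replicate 1, 3 without the 24 h replicate 2 and 4 without the untreated replicate 2. It was 5 without the 12 h OE-labelled replicate 2 or the 24 h OE-labelled replicate 1 or 2. It was 14 without the 12 h EV-labelled replicate 3 and 15 without the untreated OE-labelled replicate 1, which are outside the comparison and enter the shared fit. FANCD2 was called whichever library was left out. With the 6 libraries of the comparison alone 26 genes were called. The shares of all genes called in these fits are not given here, so the counts have no background beside them.

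**Figure D2:**
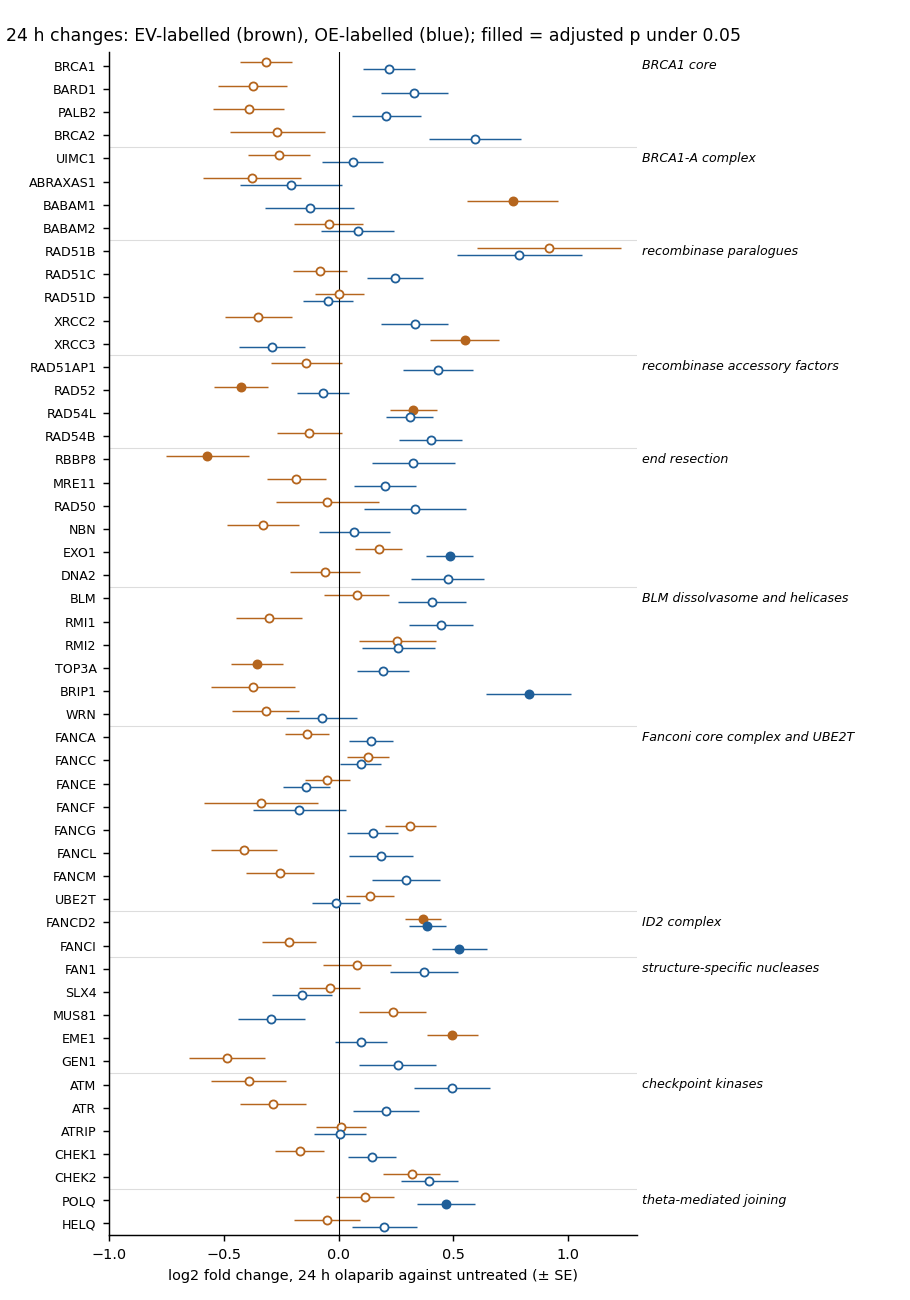
Log2 fold change of each of the 51 genes at 24 h of olaparib against untreated, with bars of 1 SE, by complex, for EV-labelled (brown) and OE-labelled cells (blue). Filled points passed an adjusted p under 0.05; FANCD2 is filled in both lines, and the other 7 filled genes in EV-labelled cells differ from the other 4 in OE-labelled cells.

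In OE-labelled cells at 24 h, 5 of the 51 genes rose and none fell. All genes were called in 8.26%, with 4.71% higher and 3.55% lower. BRIP1 (ENSG00000136492.10, chr17:61681266-61863521, minus strand), a helicase that binds BRCA1, rose most (log2 fold change 0.83 ± 0.18 SE, adjusted p = 0.00750). It was followed by FANCI (0.53 ± 0.12, adjusted p = 0.00874), EXO1 (0.48 ± 0.10, adjusted p = 0.00583), POLQ, the polymerase of theta-mediated joining (0.47 ± 0.13, adjusted p = 0.0244), and FANCD2 (0.39 ± 0.08, adjusted p = 0.00490). POLQ stood at 69.5, 54.8 and 54.6 CPM untreated and at 79.1, 78.9 and 89.3 CPM at 24 h. All 3 treated libraries were above the 3 untreated ones for each of the 5 genes, which the test had picked on these same libraries. For this too the share of all genes is not given. At an unadjusted p under 0.05 there were 18 genes, against 23.7% of all genes. DESeq2 called 10 of the 51 higher and none lower, against 6.71% and 7.12% of all genes with an adjusted p.

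Of the 51 values 40 were above 0, with a median of 0.21, against 52.9% above 0 and a median of 0.02 for all genes. All 4 genes of the BRCA1 core, all 6 of end resection and all 5 of the checkpoint kinase group, which includes the ATR partner ATRIP, had values above 0. Of these EXO1 passed the test. Given the offset, the resection subunit NBN was at -0.08 and the other 14 stayed above 0, with CHEK1, ATR, MRE11, ATRIP and BRCA1 at 0.0718 or less. BRCA1 itself gave 0.22 ± 0.11 (adjusted p = 0.242) and BRCA2 0.59 ± 0.20 (adjusted p = 0.0710). With the GC and length offset 13 genes rose and none fell, against 17% of all genes (6.74% higher and 10.2% lower). The median was then 0.10 and 37 values were above 0, against -0.01 and 46.8% of values for all genes. The 13 held all 5 genes above, with ATM, BRCA2, CHEK2, DNA2, FANCG, RAD51AP1, RAD54L and RMI1. The untreated OE-labelled replicate 1 stood apart: over the 51 genes, the log2 distance from the mean of the untreated libraries had a median of 0.18 in it, against -0.06 and -0.07 in the other untreated libraries and 0.17, 0.22 and 0.30 in the 24 h libraries. Without that replicate 20 genes were called, 18 higher and 2 lower. Without the untreated replicate 2 or the 24 h replicate 3 there were 3, without the 12 h EV-labelled replicates 1 or 3 there were 8 and 12, and with the 6 libraries of the comparison alone there was 1. These counts too stand without the share of all genes called in the same fit.

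FANCD2 was the only gene of the 51 called at 24 h in both lines without the offset, and with it EXO1, FANCD2 and POLQ were called higher in both. It was 90.2, 88.1 and 87.6 CPM untreated, 105, 117 and 98.8 CPM at 12 h and 115, 114 and 115 CPM at 24 h in EV-labelled libraries, and 49.3, 49.2 and 48.4 CPM untreated, 50.2, 51.5 and 51.4 CPM at 12 h and 63.5, 63.7 and 64.7 CPM at 24 h in OE-labelled libraries. Its 24 h libraries were above every untreated library in each line, and the difference of its change between the lines was 0.02 ± 0.11 (adjusted p = 0.996). With the GC and length offset that difference was -0.30 ± 0.09 (adjusted p = 0.0266), so whether the lines differed depended on the offset.

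**Figure D3:**
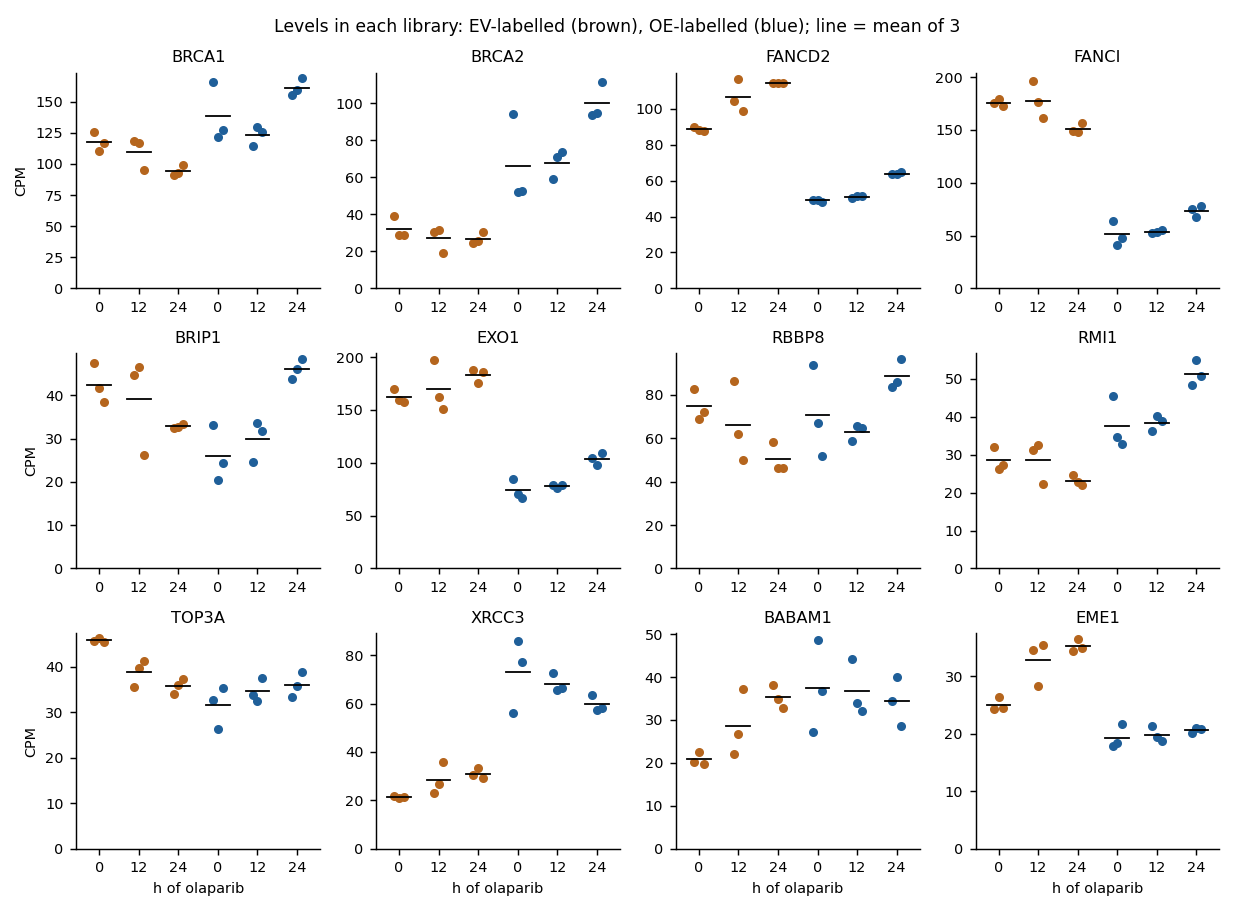
Level in each library, in CPM, of 12 of the genes against hours of olaparib, for EV-labelled (brown) and OE-labelled libraries (blue), with a line at the mean of 3. FANCD2 rises in both lines, BRIP1 ends lower in EV-labelled and higher in OE-labelled libraries, and the untreated OE-labelled replicate 1 stands apart for BRCA1, BRCA2, RBBP8 and RMI1.

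The promoters of 45 of the 51 genes were matched by symbol in RefSeq sequences (GRCh38.p14, 250 bases before to 50 after the start). DNA2, FANCI, NBN, RAD54B, RMI2 and WRN had no entry. Only the first listed sequence of each symbol was used, so other starts of a gene were not searched. E2F factors drive genes of S phase, and any of TTTCCCGC, TTTCGCGC, TTTGCCGC or TTTGGCGC on either strand was searched as their motif. It was in 6 of 45 promoters (13.3%), those of EXO1, FANCA, FANCC, FANCD2, GEN1 and XRCC2, against 3.33% of 27305 promoters of all genes. The CHR motif of mitotic genes (TTTGAA or TTCGAA) was in 13.3% against 16.6%, and CCAAT, on either strand, in 42.2% against 35.7%. No searched motif contains another, and a match is not a bound site. The sequences below run from 90 bases before to 30 bases after the start, and are shown because their genes changed at 24 h in a line or in the difference between lines and hold an E2F motif there, which is in capitals.
EXO1: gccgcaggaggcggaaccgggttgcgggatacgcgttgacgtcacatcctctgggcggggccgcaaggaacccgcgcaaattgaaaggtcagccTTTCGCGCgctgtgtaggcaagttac
FANCD2: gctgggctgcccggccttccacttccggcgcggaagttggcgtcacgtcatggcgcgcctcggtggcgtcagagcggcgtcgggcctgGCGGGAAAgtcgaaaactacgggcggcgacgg
GEN1: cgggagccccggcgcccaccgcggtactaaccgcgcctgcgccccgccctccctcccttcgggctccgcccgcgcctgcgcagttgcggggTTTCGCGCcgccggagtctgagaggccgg
XRCC2: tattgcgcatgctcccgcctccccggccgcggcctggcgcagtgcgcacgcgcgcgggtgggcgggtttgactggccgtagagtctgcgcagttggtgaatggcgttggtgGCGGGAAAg
They lie at chr1:241848114-241848233 (plus strand), chr3:10026347-10026466 (plus strand), chr2:17753779-17753898 (plus strand) and chr7:152676112-152676231 (minus strand). Counted from 1 at the start, the motif covers bases 5 to 12 of EXO1, 2 to 9 of GEN1 and 22 to 29 of XRCC2, and in FANCD2 it runs from -2 to 6. The median change (log2) of the 6 genes with the motif was 0.29 at 24 h in OE-labelled cells, against 0.20 for the 39 without it, and -0.005 against -0.08 in EV-labelled cells.

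The change at 24 h differed between the lines in 14 of the 51 genes, 12 with a larger value in OE-labelled cells and 2 with a smaller one. Of all genes 19.4% were called, 8.16% larger and 11.2% smaller. The 12 were BRIP1, RBBP8, ATM, BRCA2, RMI1, GEN1, FANCI, BARD1, XRCC2, FANCL, TOP3A and BRCA1, and the 2 were BABAM1 and XRCC3. The median difference was 0.32 for the 51 genes and 0.05 for all genes. By complex, 3 of 4 genes of the BRCA1 core and 3 of 6 of the dissolvasome and helicase group had a larger value, and the accessory factors and theta-mediated joining had none.

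BRIP1 showed the largest difference, 1.20 ± 0.26 (adjusted p = 0.00432) on the log2 scale, OE-labelled minus EV-labelled. It had 47.4, 41.6 and 38.4 CPM untreated, 44.7, 46.6 and 26.1 CPM at 12 h and 32.4, 32.7 and 33.4 CPM at 24 h in EV-labelled libraries. The OE-labelled libraries held 33.1, 20.3 and 24.4 CPM untreated, 24.6, 33.6 and 31.8 CPM at 12 h and 43.8, 46.1 and 48.3 CPM at 24 h, so the 24 h libraries were below the untreated ones in EV-labelled cells and above them in OE-labelled cells, while the 12 h libraries overlapped the untreated ones in both. RBBP8 differed by 0.90 ± 0.26 (adjusted p = 0.0191), with 82.6, 69.04 and 72.2 CPM untreated, 86.1, 62.1 and 50.04 CPM at 12 h and 58.2, 46.3 and 46.1 CPM at 24 h in EV-labelled libraries. In OE-labelled libraries it had 93.7, 67.03 and 51.6 CPM untreated, 58.8, 65.5 and 64.6 CPM at 12 h and 83.6, 85.97 and 96.6 CPM at 24 h, and the untreated and 24 h libraries overlapped. RMI1, a scaffold of the dissolvasome, differed by 0.75 ± 0.20 (adjusted p = 0.0132). It stood at 31.99, 26.2 and 27.3 CPM untreated, 31.3, 32.4 and 22.2 CPM at 12 h and 24.6, 22.7 and 21.9 CPM at 24 h in EV-labelled libraries and at 45.5, 34.6 and 32.9 CPM untreated, 36.2, 40.3 and 38.8 CPM at 12 h and 48.3, 55.1 and 50.8 CPM at 24 h in OE-labelled libraries. FANCI, with the levels above, differed by 0.74 ± 0.17 (adjusted p = 0.00537), and TOP3A by 0.55 ± 0.16 (adjusted p = 0.0205). TOP3A was 45.7, 46.4 and 45.5 CPM untreated, 35.5, 39.8 and 41.2 CPM at 12 h and 34.1, 35.96 and 37.4 CPM at 24 h in EV-labelled and 32.8, 26.3 and 35.4 CPM untreated, 33.9, 32.5 and 37.5 CPM at 12 h and 33.4, 35.9 and 38.9 CPM at 24 h in OE-labelled libraries. In all of RMI1, FANCI and TOP3A the EV-labelled 24 h libraries were below the untreated ones.

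BRCA1 differed by 0.54 ± 0.16 (adjusted p = 0.0230). In EV-labelled libraries it had 126, 111 and 117 CPM untreated, 119, 117 and 94.9 CPM at 12 h and 90.9, 93.1 and 99.5 CPM at 24 h. In OE-labelled libraries it had 166, 122 and 127 CPM untreated, 114, 129.6 and 126 CPM at 12 h and 155, 159 and 169 CPM at 24 h, where the untreated replicate 1 lay within the range of the 24 h libraries. BARD1, the partner that forms the ubiquitin ligase with BRCA1, differed by 0.70 ± 0.21 (adjusted p = 0.0236), with 20.7, 19.2 and 20.04 CPM untreated, 19.9, 19.8 and 12.6 CPM at 12 h and 15.2, 15.3 and 15.6 CPM at 24 h in EV-labelled and 24.1, 20.1 and 19.2 CPM untreated, 19.6, 23.3 and 25.1 CPM at 12 h and 27.8, 24.6 and 27.3 CPM at 24 h in OE-labelled libraries. BRCA2 differed by 0.86 ± 0.29 (adjusted p = 0.0409), at 39.1, 28.6 and 28.9 CPM untreated, 30.4, 31.3 and 19.2 CPM at 12 h and 24.3, 25.4 and 30.5 CPM at 24 h in EV-labelled libraries. Its OE-labelled libraries had 94.1, 52.00 and 52.8 CPM untreated, 59.1, 70.8 and 73.5 CPM at 12 h and 93.9, 94.5 and 112 CPM at 24 h, and neither line separated 24 h from untreated without overlap. PALB2, the bridge between BRCA1 and BRCA2, did not pass the test (0.60 ± 0.22, adjusted p = 0.0544).

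ATM differed by 0.89 ± 0.23 (adjusted p = 0.0123), with 80.01, 78.1 and 80.8 CPM untreated, 70.8, 74.2 and 56.2 CPM at 12 h and 54.3, 55.2 and 72.4 CPM at 24 h in EV-labelled and 41.8, 25.6 and 30.2 CPM untreated, 28.97, 36.6 and 37.95 CPM at 12 h and 41.1, 41.8 and 54.4 CPM at 24 h in OE-labelled libraries. GEN1, a nuclease that cuts Holliday junctions, differed by 0.75 ± 0.24 (adjusted p = 0.0310), with 82.1, 64.1 and 67.4 CPM untreated, 68.1, 61.3 and 44.1 CPM at 12 h and 50.7, 48.2 and 53.3 CPM at 24 h in EV-labelled and 56.7, 34.9 and 36.7 CPM untreated, 32.3, 40.7 and 34.5 CPM at 12 h and 50.7, 49.2 and 53.3 CPM at 24 h in OE-labelled libraries. For both, the treated and untreated libraries separated in EV-labelled cells and overlapped in OE-labelled cells. XRCC2, a recombinase paralogue, differed by 0.68 ± 0.21 (adjusted p = 0.0263), with 88.6, 86.9 and 87.95 CPM untreated, 84.9, 92.1 and 63.8 CPM at 12 h and 66.3, 65.03 and 75.4 CPM at 24 h in EV-labelled and 60.5, 37.6 and 44.5 CPM untreated, 42.4, 48.5 and 48.8 CPM at 12 h and 61.4, 53.2 and 64.7 CPM at 24 h in OE-labelled libraries. FANCL, the ubiquitin ligase of the Fanconi core complex, differed by 0.60 ± 0.20 (adjusted p = 0.0410), with 31.2, 28.1 and 25.2 CPM untreated, 27.1, 27.2 and 23.7 CPM at 12 h and 20.4, 19.4 and 23.7 CPM at 24 h in EV-labelled and 41.4, 36.7 and 30.4 CPM untreated, 25.6, 29.7 and 36.5 CPM at 12 h and 39.1, 45.8 and 38.5 CPM at 24 h in OE-labelled libraries.

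The opposite direction was that of BABAM1 and XRCC3. BABAM1 differed by -0.88 ± 0.28 (adjusted p = 0.0298), with 20.3, 22.6 and 19.7 CPM untreated, 22.03, 26.7 and 37.2 CPM at 12 h and 38.2, 34.8 and 32.9 CPM at 24 h in EV-labelled and 27.2, 48.7 and 36.8 CPM untreated, 44.2, 33.9 and 32.03 CPM at 12 h and 34.5, 40.1 and 28.7 CPM at 24 h in OE-labelled libraries. XRCC3 differed by -0.84 ± 0.21 (adjusted p = 0.00904), with 21.7, 20.8 and 21.2 CPM untreated, 22.9, 26.8 and 35.8 CPM at 12 h and 30.6, 33.4 and 29.1 CPM at 24 h in EV-labelled and 56.03, 85.8 and 77.4 CPM untreated, 72.8, 65.8 and 66.3 CPM at 12 h and 63.5, 57.5 and 58.00 CPM at 24 h in OE-labelled libraries. Both rose without overlap in EV-labelled cells, and for both the OE-labelled groups overlapped.

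GC content moved with these differences. Across the 51 genes, which share the same 12 libraries, the rank correlation of the difference at 24 h with GC content was -0.73, and across 18076 genes it was -0.43. Of the 25 genes under 42.2% GC, 10 had a larger value and none a smaller one, with a median of 0.53. Of the 26 others 2 had a larger and 2 a smaller value, with a median of 0.01. The same split of all genes is not given here, so these counts have no background beside them. XRCC3 had the highest GC content of the 51 at 63.8%, and RMI1 the lowest at 36.0%. With the GC and length offset the rank correlation over the 51 was -0.22, the median difference 0.09, and 10 genes were called, 7 larger and 3 smaller, against 18.2% of all genes (6.85% and 11.4%). They held 7 of the 14: BRIP1 (0.74 ± 0.15, adjusted p = 0.00149), RBBP8 (0.58 ± 0.15, adjusted p = 0.0111), RMI1 (0.42 ± 0.11, adjusted p = 0.0109), FANCI (0.43 ± 0.10, adjusted p = 0.00563), TOP3A (0.65 ± 0.13, adjusted p = 0.00151), BABAM1 (-0.56 ± 0.19, adjusted p = 0.0456) and XRCC3 (-0.40 ± 0.13, adjusted p = 0.0298). BRCA1 was then at 0.15 ± 0.07 (adjusted p = 0.173), BRCA2 at 0.33 ± 0.14 (adjusted p = 0.107) and ATM at 0.28 ± 0.11 (adjusted p = 0.0980), and BARD1, GEN1, XRCC2 and FANCL did not pass either. Single libraries also moved the count of 14. It was 27 without the untreated OE-labelled replicate 1, and 5 without the untreated OE-labelled replicate 2 or the 24 h OE-labelled replicate 3. It was 6 without the untreated EV-labelled replicate 1, the 24 h EV-labelled replicate 2 or the untreated OE-labelled replicate 3, and 8 without replicate 1 of either 24 h group. For these fits as well, the share of all genes called is not given.

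**Figure D4:**
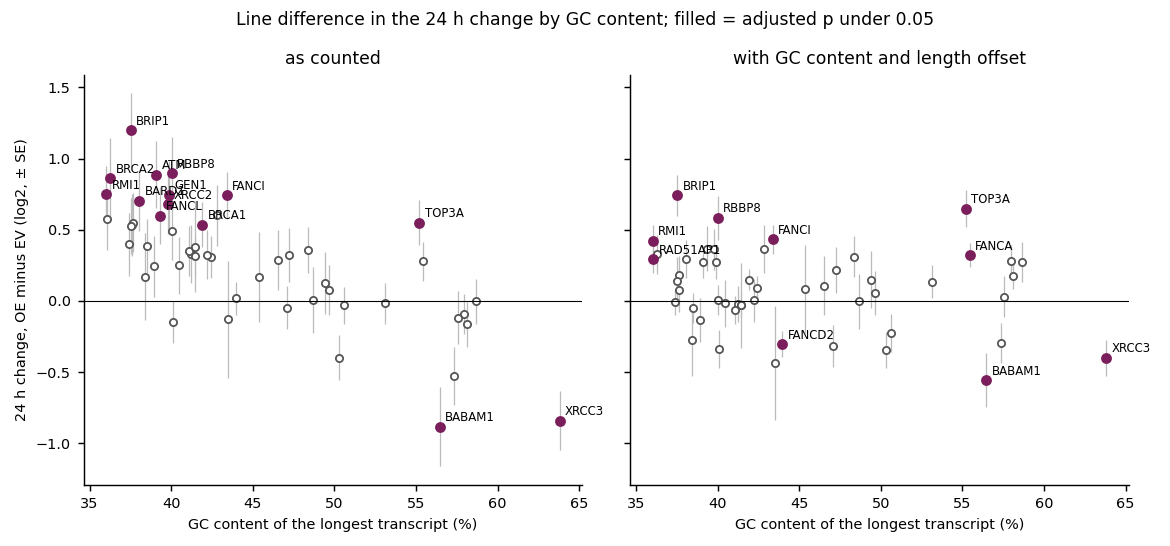
Difference of the 24 h change between the lines (OE-labelled minus EV-labelled, log2, with bars of 1 SE) against the GC content of the longest transcript for the 51 genes, as counted (left) and with the GC content and length offset (right). Filled points passed an adjusted p under 0.05; the rank correlation with GC content is -0.73 at the left and -0.22 at the right, and 14 and 10 genes are filled.

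With treatment the lines differed in 35 genes at 12 h, 15 higher and 20 lower in OE-labelled cells, against 72.9% of all genes (38.8% higher and 34.1% lower). At 24 h it was 37 genes, 22 higher and 15 lower, against 73.9% of all genes (39.9% higher and 34% lower). All 4 genes of the BRCA1 core were higher in OE-labelled cells at 24 h. They were BRCA2 (1.90 ± 0.21, adjusted p = 5.08e-08), PALB2 (0.92 ± 0.15, adjusted p = 1.54e-05), BARD1 (0.79 ± 0.15, adjusted p = 7.42e-05) and BRCA1 (0.77 ± 0.11, adjusted p = 3.17e-06). All 4 were still called with the GC and length offset, with BRCA1 at 0.57 ± 0.05 (adjusted p = 1.84e-09). Among the 11 genes called higher at all 3 times were CHEK1, the kinase that ATR activates, and SLX4, a scaffold of nucleases. Among the 15 called lower at all 3 times were DNA2, RAD51D, FANCE, FANCG and ATRIP, the partner of ATR, which gave -0.93 ± 0.11 (adjusted p = 1.79e-07) at 24 h. BRIP1 and RAD51AP1 were called in opposite directions at different times. BRIP1 was lower untreated (-0.71 ± 0.18, adjusted p = 0.00176) and higher at 24 h (0.49 ± 0.18, adjusted p = 0.0206). The call at 24 h was lost with the offset (0.22 ± 0.10, adjusted p = 0.0613), with a replicate block, and without the 24 h EV-labelled replicate 1 or the 24 h OE-labelled replicate 3. RAD51AP1 was lower at 12 h (-0.38 ± 0.15, adjusted p = 0.0307) and higher at 24 h (0.59 ± 0.15, adjusted p = 0.00172). CHEK2, FAN1, RAD50, RAD54L and UIMC1 were called at no time. How many of all genes were called in the same direction at all 3 times, or at no time, is not given here. The 11 higher genes, the 15 lower genes and those called at no time therefore have no background beside them.

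Lists of other genes were read in the same fits. Of 40 genes of S phase and replication, 9 rose and none fell in OE-labelled cells at 24 h, and their median change was 0.21 on the log2 scale, equal to that of the 51 genes to 2 decimals. The 9 were 22.5% of the list, while 4.71% of all genes were called higher and 3.55% lower. CCNE2, a cyclin that starts S phase, rose by 0.83 ± 0.16 SE (adjusted p = 0.00198), and RRM2, a subunit of ribonucleotide reductase, by 0.56 ± 0.09 SE (adjusted p = 2.25e-04). In EV-labelled cells at 24 h 3 of the 40 rose (7.5%) and 7 fell (17.5%), against 8.62% and 5.12% of all genes. CCNE2 was among those that fell, at -0.76 ± 0.17 SE (adjusted p = 0.00801). Of 35 genes of G2/M and mitosis, none rose and 13 fell in OE-labelled cells at 12 h, and 10 fell at 24 h, while 4 rose and 4 fell in EV-labelled cells at 24 h. In OE-labelled cells the falls were 37.1% of the list at 12 h and 28.6% at 24 h, against 0.605% and 3.55% of all genes. In EV-labelled cells the share was 11.4% in each direction, against 8.62% higher and 5.12% lower of all genes. The anaphase activator CDC20 fell in OE-labelled cells at 24 h (log2 fold change -1.05 ± 0.12 SE, adjusted p = 4.96e-06). In the same OE-labelled libraries the 51 genes thus had a median above 0 and the mitotic genes a median of -0.23. A bulk level does not tell fewer cells in a phase from less RNA per cell. With the GC and length offset, added after the trend was seen, the S phase genes called in OE-labelled cells at 24 h were 13 higher and 0 lower, and the mitotic genes 0 higher and 23 lower. Of all genes 6.74% were then called higher and 10.2% lower.

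Of 48 tested genes of the wider pathway, 2 rose and 1 fell in OE-labelled cells at 24 h, and 5 rose and 8 fell in EV-labelled cells. The shares in OE-labelled cells were 4.17% and 2.08%, against 4.71% and 3.55% of all genes. In EV-labelled cells they were 10.4% and 16.7%, against 8.62% and 5.12%. CLSPN, a mediator of the ATR checkpoint, rose in OE-labelled cells (0.63 ± 0.13 SE, adjusted p = 0.00371). ETAA1, an activator of ATR, fell in EV-labelled cells (-0.70 ± 0.17 SE, adjusted p = 0.0123). The change at 24 h differed between the lines in 16 of the 48, 8 in each direction, and in 14 of the 40 S phase genes, all with a larger value in OE-labelled cells. These were 16.7% of the 48 in each direction and 35% of the 40. Of all genes 8.16% had a larger and 11.2% a smaller value. REV3L, the catalytic subunit of a translesion polymerase, had a difference of 1.12 ± 0.27 SE (adjusted p = 0.00776). With the offset REV3L gave 0.64 ± 0.14 (adjusted p = 0.00281) and ETAA1 -0.37 ± 0.11 (adjusted p = 0.0315) in EV-labelled cells, both still called.

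**Figure D5:**
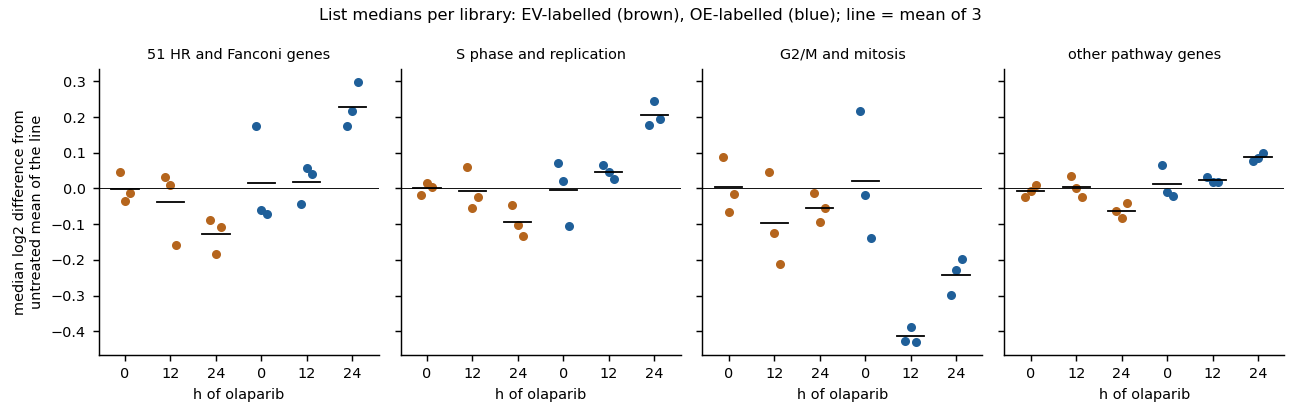
Median log2 difference of each list from the untreated mean of its line, in each library against hours of olaparib, for EV-labelled (brown) and OE-labelled libraries (blue), with a line at the mean of 3. In OE-labelled libraries the 51 genes and the S phase genes are highest at 24 h, and the mitotic genes lie below 0 at 12 h and 24 h.

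Some of these counts are uncertain because the sources used here do not say whether the counting used strand. By position, 30 of the 51 genes overlap a listed gene on the other strand and 13 a listed gene on the same strand. Of the genes with a result above, FANCI overlaps POLG, XRCC3 overlaps KLC1, BABAM1 overlaps USHBP1, EME1 overlaps LRRC59 and GEN1 overlaps SMC6. Listed pseudogenes of the same name exist for 7 of the 51, among them BRCA1, FANCD2, CHEK2, MRE11 and RBBP8, and reads could be split between the copies.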

How the data were processed

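RNA-seq counts of 18 libraries (3 for each of 2 cell lines at 0 h, 12 h and 24 h) were analysed, grouped by sample title. The authors extracted total RNA with TRIzol and prepared libraries with a NEBNext Ultra II kit, and the values they deposited are unnormalized counts, whole numbers of reads assigned to each gene. The submitters' processing notes name HISAT2, featureCounts, DESeq2, GRCh38 and hg38, and the annotation release and strand setting are not given in the sources used here. The 18 deposited tables of single libraries equalled the columns of the joint table. Of 35044 identifiers, 34966 (99.78%) matched a symbol without version and 33888 (96.7%) were in GENCODE release 29, from which positions, exonic lengths and GC contents were taken.

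Counts were normalized with TMM, filtered by group with filterByExpr and tested with edgeR 4.0.16 (R 4.3.3) by the quasi-likelihood test, with 1 mean per group over all 18 libraries. A call needed an adjusted p (Benjamini-Hochberg, over 18335 genes) below 0.05, and tests were two-sided. SE is the log2 fold change divided by the root of the F statistic. The scripts were tested on simulated counts. The biological coefficient of variation was 12.9%, and pairs of replicates differed beyond sampling noise (chi-square per gene 3.07 to 37.7), so each library counted as 1 replicate. Alternatives were DESeq2 1.42.0 size factors, its Wald test, all genes with a count, only genes with 10 counts or more in all libraries, the compared groups alone, a replicate block, an offset for GC content and length, and each library left out.

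The genes, lists and rules were chosen with earlier results of these data known. Named in each comparison were the called genes of the 51, up to 5 in each direction, by size of change. Values in every library were given for genes with a log2 fold change of at least 1 between untreated lines or a called difference of the treatment change, and BRCA1. Up to 3 genes of each other list were named, and any further gene was chosen after its values were seen. No explanation was tested. Some items are not reported here.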

Additional observations from a re-analysis of the deposited data

Results flagged for a closer look

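The change at 24 h differed between the lines, by the test of the difference itself, in 14 of the 51 genes (OE-labelled minus EV-labelled, log2). Of all genes 19.4% were called, 8.16% with a larger and 11.2% with a smaller value in OE-labelled cells. The difference was 1.20 for BRIP1, 0.90 for RBBP8, 0.89 for ATM, 0.86 for BRCA2, 0.75 for RMI1, 0.75 for GEN1, 0.74 for FANCI and 0.70 for BARD1. It was 0.68 for XRCC2, 0.60 for FANCL, 0.55 for TOP3A and 0.54 for BRCA1, and -0.88 for BABAM1 and -0.84 for XRCC3. With the offset for GC content and length, BRIP1, RBBP8, RMI1, FANCI, TOP3A, BABAM1 and XRCC3 stayed past the threshold, and the other 7 did not. With that offset 18.2% of all genes were called. Groups of 3 libraries are too small for a test of single outlying libraries.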

How the results depend on the processing

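The counts of called genes between the lines moved by less than 1.5 times under every alternative. In EV-labelled cells at 24 h, where 8 of the 51 genes were called, there were 26 with the compared groups alone and 13 with DESeq2's Wald test, and 1 to 15 with a library left out. In OE-labelled cells at 24 h, where 5 were called, there were 8 without the filter on low counts, 1 with the compared groups alone, 10 with the Wald test, 13 with the GC and length offset, 13 with the offset and a replicate block together, and 3 to 20 with a library left out. For the difference between the lines at 24 h, 14 called, the range with a library left out was 5 to 27. At 12 h, where none was called, EV-labelled cells had 2 with the Wald test (EME1 and FANCD2), 2 with the offset (FANCD2 and POLQ) and 1 with the offset and block. OE-labelled cells had 1 with the offset (BRCA1, lower at -0.18, adjusted p = 0.0398), and the difference between the lines had 2 with the offset (FANCD2 and XRCC3), 1 with the offset and block (FANCD2), and 0 to 1 with a library left out. The cause of these movements was not tested, and most of these counts stand without the share of all genes called in the same setting. BRCA1, not called at 12 h without the offset, turned from -0.10 to 0.059 in EV-labelled cells at 12 h with the offset, with or without the block (log2), and its line difference at 12 h, -0.07, ranged from -0.17 to 0.077 with a library left out, above 0 without the untreated OE-labelled replicate 1. Same-numbered libraries did not deviate together (correlations -0.59 to 0.48), so the replicate block, which gave 7, 5 and 13 genes for the 3 comparisons at 24 h, pairs no samples. Of 52 called values of named genes, 35 stayed called under all 26 alternatives: all 31 between the lines, 1 of 13 within a line (FANCD2 in EV-labelled cells at 24 h) and 3 of 8 differences in the change (BRIP1, RMI1 and XRCC3). With 3 libraries a group, changes at low counts had wide errors.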
